A study of Mus musculus with 3 samples.

Results

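The comparison set the mean of both treated arrays against the control array, for 10671 genes above background out of 19505 named genes on the arrays, in all 3 arrays of the series. The cells were plasmacytoid dendritic cells grown from the bone marrow of wild-type male BALB/c mice aged 4 to 5 weeks, kept for 6 to 9 days in medium with 100 ng/mL Flt3 ligand. CpG oligodeoxynucleotides matured them, and sorted mature cells gave the RNA. Astragaloside IV, a saponin, was given to the cells of one array and oxymatrine, an alkaloid, to those of another, each for 12 h, and CCL21 was then given for 1 h. The control array came from cells labelled only as control, and the sources used here do not say whether those cells received CCL21 or a vehicle. The doses, the number of mice or cultures behind each array and the purity of the sort are likewise not stated there. Each group was 1 array, so the values have no replicate error and no test was made.

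Plasmacytoid dendritic cells sense nucleic acids through endosomal Toll-like receptors and secrete type I interferon. CpG oligodeoxynucleotides engage Tlr9 and mature the cells, which then carry Ccr7 and migrate towards its ligands CCL19 and CCL21. Ccr7 signals through inhibitory G proteins, phosphoinositide 3-kinases and small GTPases to the actin and microtubule skeletons. The series title names suppressed migration of these cells as its subject, and this comparison asks which transcripts lay on the same side of control with both compounds.

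For every gene the difference was the mean log2 level of the treated arrays minus the log2 level of control, so that 1 on this scale is a factor of 2. Beside it stands the gap, the absolute log2 difference between the treated arrays. The gap is a distance between cells given different compounds and not a replicate error. A gene was taken as above background from a mean log2 level of 5.28 upwards, a limit under which 95% of 1412 odorant and pheromone receptor genes lay. Fam241b was the gene just inside this limit and Vsig8 the gene just outside it, both at a mean log2 level of 5.28. Because the same control array enters both differences, a deviation of that array alone cannot be told apart from a change common to both compounds.

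The 3 arrays lay at similar distances from each other, with oxymatrine and control the farthest apart. Over the 10671 genes the SD of the log2 difference was 0.208 between the treated arrays, 0.199 between astragaloside IV and control and 0.229 between oxymatrine and control. Differences of 1.5-fold or more numbered 275 between the treated arrays, against 227 and 353 for astragaloside IV and oxymatrine against control. The median absolute difference was 0.0614 for the treated pair, 0.0619 for astragaloside IV and control and 0.0824 for oxymatrine and control. The oxymatrine array was thus nearer to astragaloside IV than to control by each of these measures, while the astragaloside IV array was nearer to control by the SD and the count. Exactly equal values made up 26.7% of genes for the treated pair, 27.7% for astragaloside IV and control and 24.4% for oxymatrine and control. Exact ties were thus frequent in every pair, and a gap of 0 is not a sign of equal effects.

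The mean difference from control was small for nearly all genes. It had a median of -0.0022 and an SD of 0.188, and ranged from -1.38 to 1.23 on the log2 scale. A difference of any size below 0 was found for 5402 genes (50.6%) and above 0 for 3815 genes (35.8%), with the rest equal. Of all 10671 genes, 11 (0.103%) were 2-fold apart, 8 lower (0.075%) and 3 higher (0.0281%) in the treated mean. At 1.5-fold there were 177 genes (1.66%), 102 lower (0.956%) and 75 higher (0.703%). The difference exceeded the gap for 164 of these 177, of which 93 were lower (0.872% of all genes) and 71 higher (0.665%). With each array centred on its median, the 164 became 152, with 69 lower and 83 higher, and with quantile normalisation 157, with 101 lower and 56 higher, so which direction held more genes depended on the scaling.

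**Figure D1:**
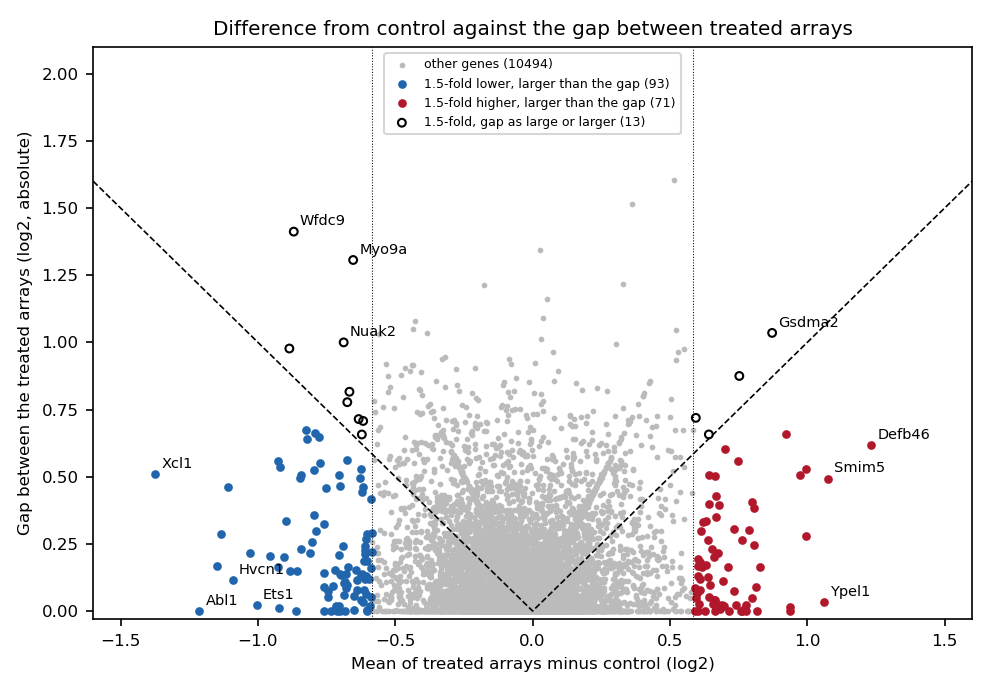
Each point is 1 of the 10671 genes above background, with the mean of the treated arrays minus control on the horizontal axis and the absolute gap between the treated arrays on the vertical axis, both in log2 units. Dotted lines mark 1.5-fold and dashed lines mark a difference equal to the gap; 93 lower genes (blue) and 71 higher genes (red) lie outside both, and 13 genes (open circles) pass 1.5-fold with a gap as large or larger.

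The lower and the higher genes of these 164 differed in brightness. Their median log2 levels over the 3 arrays were 7.13 for the lower and 6.19 for the higher genes. The lower genes had a median log2 level of 7.53 in control and 6.93 in the treated mean. All 93 were above background in control, which the filter on the mean of the 3 arrays requires where control is the highest array. The higher genes had a median of 5.76 in control and 6.44 in the treated mean. In control 23 of the 71 lay below background, and these passed the filter only through the treated arrays. In 14 of the 93 lower genes at least 1 treated array was below background. With every array required to be above background, 79 lower and 48 higher genes were left. The median gap was 0.16 for the lower and 0.13 for the higher genes, and it was under 0.1 for 29 and 33 of them. Over all 10671 genes the median gap was 0.06, so most genes had a gap under 0.1 and the gaps of the 164 were not small beside them. Taken array by array, 56 of the lower genes and 43 of the higher ones were 1.5-fold from control with each compound.

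The lowest gene was Xcl1, which encodes the chemokine lymphotactin, the ligand of the receptor Xcr1. Its log2 level was 6.66 in control, then 5.03 under astragaloside IV and 5.54 under oxymatrine, a mean difference of -1.38 (2.59-fold) with a gap of 0.51. The astragaloside IV value was below background, so the size of this difference rests partly on a dim reading. Ets1, a transcription factor of lymphoid cells and of plasmacytoid dendritic cells, was at 6.46 in control and at 5.45 and 5.47 in the treated arrays, given here and below with astragaloside IV first. Its difference was -1.01 (2.01-fold) and its gap 0.02, so the treated values nearly coincided below control. Il2rb, the beta chain of the receptors for interleukin 2 and interleukin 15, was at 7.33, 6.32 and 6.48, with a difference of -0.93 and a gap of 0.17. That control was the highest array for these genes follows from how they were chosen.

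Hvcn1, the voltage-gated proton channel of immune cells, was at 8.56 in control, then 7.52 under astragaloside IV and 7.41 under oxymatrine. Its difference of -1.09 (2.13-fold) was over a gap of 0.12, and all 3 values were well above background. Tecpr2, a protein linked to autophagy, was at 7.42, 6.08 and 6.54, with a difference of -1.11 and a gap of 0.46. These were, with Ets1, the 2-fold lower genes above background in every array, Ets1 by little in the treated arrays.

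The other 4 genes lower by 2-fold had treated values under the background level. Abl1, a cytoplasmic tyrosine kinase that acts on the actin skeleton, was at 6.34 in control and 5.13 in both treated arrays, a difference of -1.21 with a gap of 0.00. Scd3, a stearoyl-CoA desaturase, was at 6.26, 5.20 and 5.03, with a difference of -1.15. Qpct, which forms N-terminal pyroglutamate, was at 6.25, 4.98 and 5.26, with a difference of -1.13, and the gap junction gene Gja1 was at 6.13, 4.99 and 5.21, with a difference of -1.03. These genes passed the filter on the mean only through the control array, which was itself dim. The size of their differences is therefore uncertain.

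Below 2-fold the list of the 15 lowest genes went on with cell surface, mitochondrial and spindle genes. The adhesion G protein-coupled receptor gene Adgrg3 was at 6.40, 5.34 and 5.55 with a difference of -0.96. Mrpl43, a protein of the mitochondrial ribosome, was at 9.27 in control, then 8.35 under astragaloside IV and 8.33 under oxymatrine. Its difference of -0.92 (1.90-fold) came with a gap of 0.01, and it was the brightest of the 15. Spice1, a centriole and spindle protein, was at 6.51, 5.86 and 5.33, with a difference of -0.92, and the ferrireductase gene Steap3 at 6.59, 5.78 and 5.58, with a difference of -0.91. Nfatc2ip, which binds the factor NFATc2, was at 7.86, 7.13 and 6.79, and Rundc3b at 6.17, 5.52 and 4.96, with differences of -0.90 and -0.93. For Spice1 and Rundc3b the oxymatrine array lay farther from control than the astragaloside IV array did, by 0.54 and 0.56.

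Among the genes higher in the treated mean, Ypel1, a member of the yippee-like family, was at 9.01 in control, then 10.05 under astragaloside IV and 10.08 under oxymatrine. Its difference was 1.06 (2.09-fold) with a gap of 0.03, and it was the only 1 of the 11 genes 2-fold apart with a mean level of 9 or more. Defb46, a beta-defensin gene, was at 6.40, 7.32 and 7.94, with a difference of 1.23 (2.35-fold) and a gap of 0.62. Smim5, which encodes a small membrane protein and was listed among the plasmacytoid dendritic cell genes, was at 6.36, 7.19 and 7.68, with a difference of 1.07 (2.11-fold) and a gap of 0.49. Both treated arrays were above control for these 3 genes, with oxymatrine the higher for each.

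A further 7 of the 15 highest genes were near or below background in control. Iyd, the iodotyrosine deiodinase gene, was at 4.69, 5.54 and 5.82, with a difference of 1.00. Tcl1b4 was at 5.17, 5.90 and 6.43 with a difference of 1.00, and the stathmin family gene Stmn3 at 5.34, 6.06 and 6.57 with a difference of 0.98. The sialyltransferase gene St6galnac1 was at 4.80, 5.73 and 5.74 with a difference of 0.94, and the lectin gene Zg16 at 4.69, 5.94 and 5.28 with a difference of 0.92. Control lay below background for Iyd, Tcl1b4, St6galnac1 and Zg16, which leaves their size uncertain. Cdon, a Hedgehog co-receptor, with a difference of 0.81, and Ldb3, a protein of muscle Z-discs, with 0.78, were also below background in control, at 5.05 and 5.07.

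The rest of the 15 highest were above background in all 3 arrays. Ramp1, the accessory protein of the receptor for calcitonin gene-related peptide, was at 7.30 in control and 8.12 in both treated arrays, a difference of 0.82. Larp1b, an RNA-binding protein of the La-related family, was at 7.63, 8.62 and 8.24 with a difference of 0.81, and the zinc finger gene Zfp987 at 6.57, 7.57 and 7.16 with a difference of 0.80. The incretin gene Gip was at 5.73, 6.50 and 6.55, and Flywch2 at 5.60, 6.54 and 6.24, with differences of 0.80 and 0.79. For Larp1b, Zfp987 and Flywch2 astragaloside IV was the array farther from control, with gaps of 0.38, 0.41 and 0.30.

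**Figure D2:**
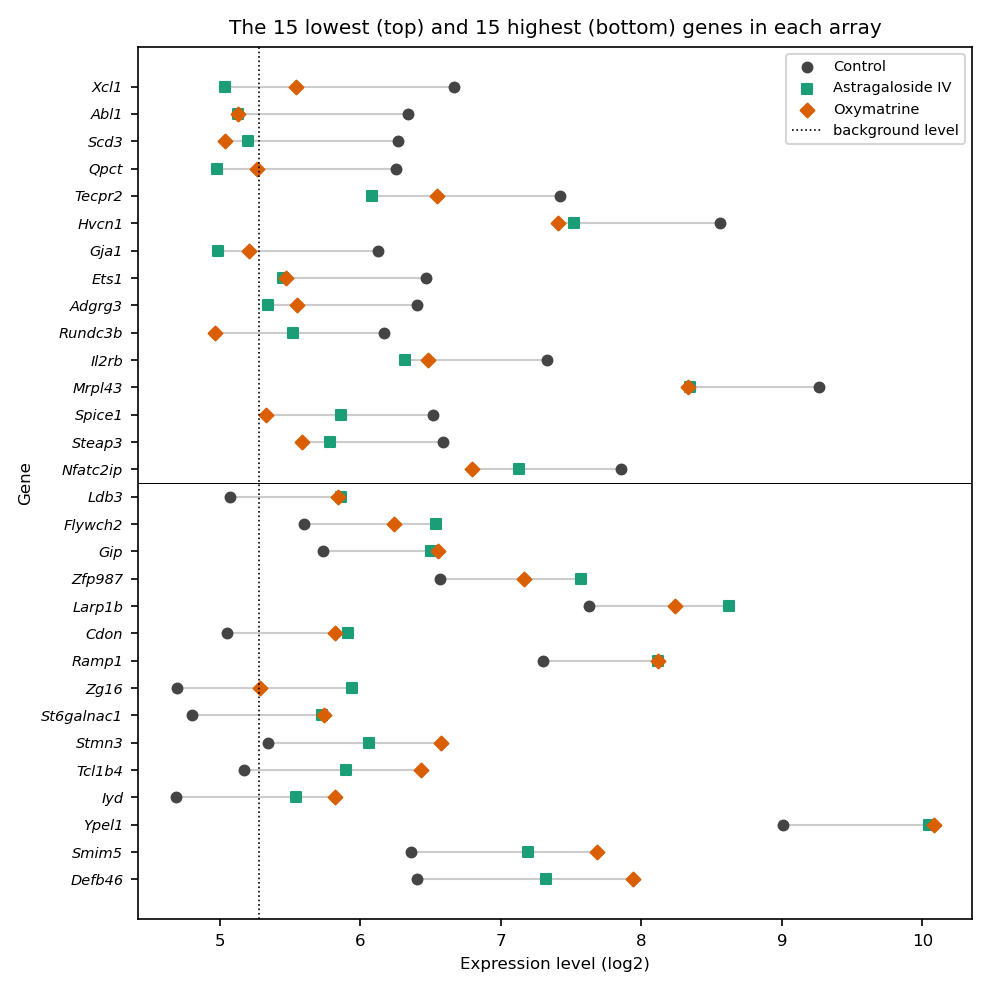
Log2 expression level (horizontal axis) of the 15 lowest and the 15 highest named genes by mean difference, 1 row per gene, with 1 point per array: control (grey circle), astragaloside IV (green square) and oxymatrine (orange diamond). Control lies to the right of both treated arrays in the upper block and to the left in the lower block, as the choice of genes requires; the dotted line is the background level of 5.28.

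Bright genes rarely differed. Of 5626 genes with a mean log2 level of 9 or more, 12 (0.213%) were 1.5-fold apart, against 165 of the 5045 dimmer genes (3.27%). The SD of the mean difference was 0.250 in the dimmest quintile of the genes and 0.113 in the brightest quintile, where 1 gene was lower and 1 higher by 1.5-fold. For the bright genes the difference is therefore also given in units of the SD over genes of similar level, taken from 20 bins of equal size, which describes other genes and is not a replicate error.

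Of the 12 bright genes, 9 were lower in the treated mean. Dcps, the scavenger enzyme that removes caps from messenger RNA fragments, was at 9.79 in control and 8.93 in both treated arrays, a difference of -0.86 or -4.86 times the SD at its level. Nab1, a corepressor of EGR transcription factors, was at 11.02, 10.36 and 10.30, with a difference of -0.69 and a gap of 0.06. Timm44, which drives protein import into mitochondria, was at 11.02, 10.47 and 10.33, with a difference of -0.62 and a gap of 0.14. Each had a difference larger than its gap, so both treated values had to lie on the same side of control. The exact tie of Dcps is not a sign of equal effects.

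Pgam1, a glycolytic phosphoglycerate mutase, was the brightest of the lower genes, at 12.68 in control, then 12.04 under astragaloside IV and 12.11 under oxymatrine. Its difference was -0.61 (1.52-fold), or -4.68 times the SD at its level, with a gap of 0.06. Kif3a, a kinesin-2 motor of microtubules and cilia, was at 9.76, 9.15 and 9.11 with a difference of -0.63, and the cytokine gene Il1a at 10.50, 9.83 and 9.99 with a difference of -0.59. The leukocyte migration molecule Cd99 was at 9.97, 9.49 and 9.27, with a difference of -0.59 just past 1.5-fold.

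The kinase genes Map4k5 and Nuak2 were bright and lower, but the treated arrays stood apart. Map4k5 was at 10.86 in control, then 10.39 under astragaloside IV and 9.73 under oxymatrine, so its difference of -0.79 exceeded its gap of 0.66 by little. Nuak2, a kinase related to AMPK, was at 12.25, 12.06 and 11.06, and its gap of 1.00 was larger than its difference of -0.69. Without the oxymatrine array the difference was -0.46 for Map4k5 and -0.19 for Nuak2, and without the astragaloside IV array it was -1.13 and -1.19. The mean of both arrays thus describes oxymatrine more than astragaloside IV for both genes.

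The 3 bright higher genes were Ypel1, Trmt112 and Ptdss2. Ypel1 lay 6.50 times the SD at its level above control, the largest such ratio of the 12 genes. Trmt112, the shared activator subunit of several methyltransferases, was at 12.86 in control, then 13.42 under astragaloside IV and 13.53 under oxymatrine, a difference of 0.61 with a gap of 0.12. Ptdss2, a phosphatidylserine synthase, was at 9.49, 10.12 and 10.05, with a difference of 0.60 and a gap of 0.07.

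**Figure D3:**
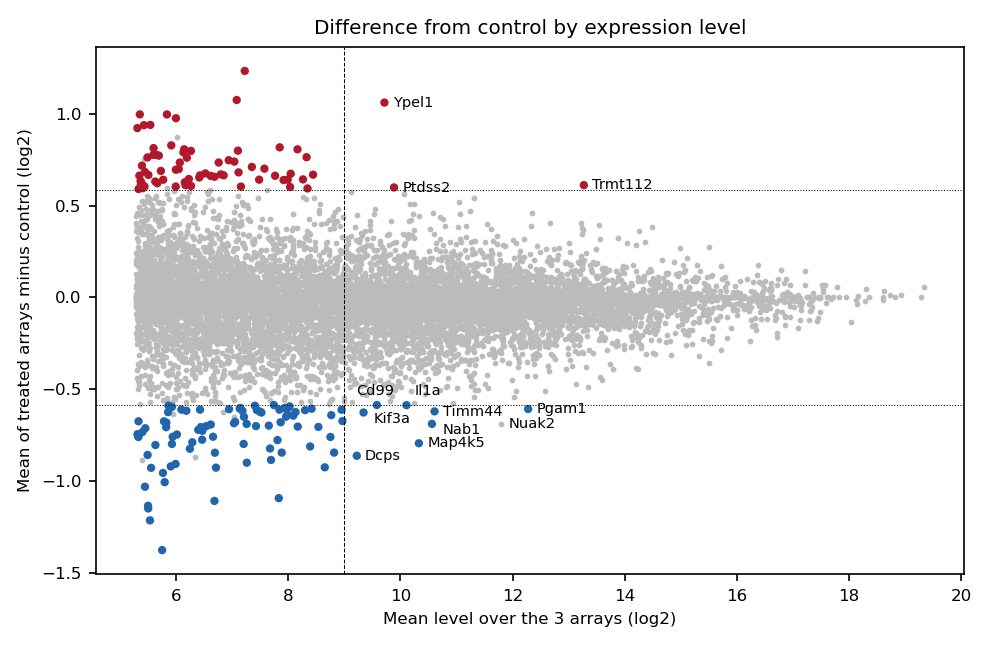
Mean of the treated arrays minus control (vertical axis, log2) against the mean log2 level over the 3 arrays (horizontal axis), 1 point per gene. Coloured points are the 93 lower and 71 higher genes past 1.5-fold with a difference larger than the gap; to the right of the dashed line at 9, where the 12 labelled genes lie, 0.213% of genes pass 1.5-fold, and Nuak2 among them is grey because its gap exceeds its difference.

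**Figure D4:**
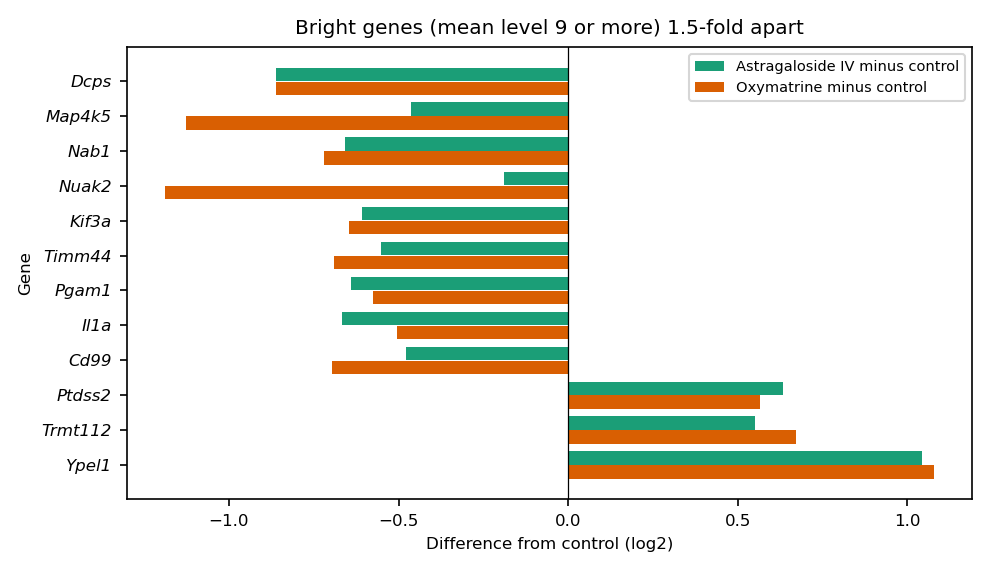
Log2 difference from control for each of the 12 bright genes 1.5-fold apart, with astragaloside IV in green and oxymatrine in orange, each bar the difference between 1 treated array and the control array. The bars of a gene are farthest apart for Map4k5 and Nuak2. There the oxymatrine bars reach -1.13 and -1.19 and those of astragaloside IV -0.46 and -0.19. Cd99 comes next, at -0.69 with oxymatrine and -0.48 with astragaloside IV.

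Upstream sequences are shown for 4 of these genes, Xcl1 and Ypel1 from the 2-fold set and Dcps and Nab1 from the bright lower genes, to set beside each other the starts of genes that lay apart from control. Each is the 250 bases before the annotated start in RefSeq's GRCm38.p6 assembly, which is of the C57BL/6J strain while the cells were BALB/c. The arrays measured transcripts, not these regions. Capitals mark the only match found in them among the motifs listed after the sequences, a CCAAT box on the reverse strand of Dcps. Xcl1 lies at chr1:164935523-164935772 on the minus strand, Ypel1 at chr16:17069889-17070138 on the plus strand, Dcps at chr9:35175988-35176237 on the minus strand and Nab1 at chr1:52500449-52500698 on the minus strand.
Xcl1: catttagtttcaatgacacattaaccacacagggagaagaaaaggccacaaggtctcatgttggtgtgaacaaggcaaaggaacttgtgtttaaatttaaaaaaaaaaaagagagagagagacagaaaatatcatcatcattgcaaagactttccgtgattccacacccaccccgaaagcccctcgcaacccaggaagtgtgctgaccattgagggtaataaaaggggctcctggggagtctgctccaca
Ypel1: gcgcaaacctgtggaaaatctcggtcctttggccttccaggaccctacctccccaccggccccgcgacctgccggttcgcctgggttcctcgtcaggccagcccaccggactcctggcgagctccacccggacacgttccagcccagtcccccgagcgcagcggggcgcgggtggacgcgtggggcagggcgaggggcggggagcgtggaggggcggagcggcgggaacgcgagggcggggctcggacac
Dcps: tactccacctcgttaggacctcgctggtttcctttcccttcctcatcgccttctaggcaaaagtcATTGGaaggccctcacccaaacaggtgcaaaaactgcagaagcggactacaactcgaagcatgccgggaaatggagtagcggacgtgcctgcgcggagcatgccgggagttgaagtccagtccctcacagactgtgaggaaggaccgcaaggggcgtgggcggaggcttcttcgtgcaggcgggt
Nab1: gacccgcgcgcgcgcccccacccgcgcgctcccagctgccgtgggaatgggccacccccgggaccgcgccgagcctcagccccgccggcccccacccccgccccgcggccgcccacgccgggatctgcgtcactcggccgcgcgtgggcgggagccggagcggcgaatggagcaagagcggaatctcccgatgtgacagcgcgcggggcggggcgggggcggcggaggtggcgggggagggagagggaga

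These sequences differed widely in base composition. The Xcl1 window was 44.0% G and C with 3 CG dinucleotides, while that of Nab1 was 80.8% with 40, Ypel1 74.0% with 29 and Dcps 58.4% with 16. RefSeq upstream windows were matched for 69 of the 93 lower and 59 of the 71 higher genes. The median was 13 CG dinucleotides for the lower, 8 for the higher and 6 for all 32851 windows. These windows belong to 27025 genes, whether above background on the arrays or not, while the lower and higher genes were all above background. Values over genes above background alone were not computed, so the contrasts with all windows are not read as traits of the lower or higher genes. Searched on both strands, with overlaps between motifs allowed, CCAAT was present in 42.9% of the windows of the lower, 38.0% of those of the higher genes and 33.8% of all windows. The TATA box TATAAA was in 4.40%, 4.23% and 12.4% in the same order. The ETS motif CCGGAAGT was in 3.30%, 1.41% and 2.88%, the AP-1 motif TGANTCA in 6.59%, 4.23% and 6.75%, the CRE motif TGACGTCA in 1.10%, 1.41% and 1.55% and the E-box CACGTG in 4.40%, 4.23% and 6.02%. These shares describe letters in a window and not binding.

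A gap as large as the difference marked 13 of the 177 genes past 1.5-fold. Of these 9 were lower, and their values came mostly from 1 treated array. Myo9a, an unconventional myosin, was at 7.46 in control and with oxymatrine and at 6.15 with astragaloside IV. Socs3, a suppressor of cytokine signalling, was at 8.28 in control, then 7.99 under astragaloside IV and 7.21 under oxymatrine, with a gap of 0.78 against a difference of -0.67. The largest gaps beside Myo9a and Nuak2 were those of Wfdc9, at 6.91, 5.33 and 6.75, and the gasdermin gene Gsdma2, at 5.43, 5.79 and 6.82, both named after their values were seen. In these genes the mean of the treated arrays matches neither array well.

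Gene groups were read against all genes above background, of which 23.1% were lower and 14.1% higher by more than the gap. The share of all these genes that was 1.5-fold apart was 1.66%. A bulk array cannot tell fewer cells of a type from less RNA per cell. Of 33 lists, 29 had a median difference below 0, but these medians lay between -0.21 and 0.04, and after centring each array on its median 14 of 33 were below 0. Small list medians are therefore not read as a direction here. Every list of 10 or more genes except the ribosomal protein and maturation lists had a lower share above 23.1%, so a share somewhat above that value sets no list apart from the others. The list shares were computed on the deposited values and not after centring, which took the share of all genes below control from 50.6% to 39.4%. In the 26.7% of genes with a gap of 0, a difference of any size other than 0 counts as larger than the gap. The order of the lists by share may thus depend on the scaling.

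Of the receptors and signalling genes of migration, 1 of 20 and 2 of 60 were 1.5-fold apart, beside 1.66% of all genes. These counts are too small to be read as a trait of either list. Ccr7 was at 16.32 in control and at 16.35 and 16.26 in the treated arrays, a difference of -0.02 with a gap of 0.09. Of 20 chemoattractant receptors above background out of 33 measured, 7 (35.0%) were lower by more than the gap and 0 higher, with a median of -0.07. Ccr3, an eotaxin receptor, was at 7.08, 6.26 and 6.51 and was the only member past 1.5-fold, with a difference of -0.69. Ccr6, the receptor of CCL20, was at 6.55, 6.22 and 6.05 with a difference of -0.42, while Ccr4, at 7.33, 7.24 and 6.61, had a gap of 0.63 over its difference of -0.41. Ccr9, which directs these cells to the gut, was at 9.46, 9.20 and 9.15, with a difference of -0.29 and a gap of 0.05. Cxcr4, S1pr4 and Selplg differed by -0.04, -0.01 and -0.03.

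Downstream of the receptors, 60 of 62 measured genes of chemotaxis signalling were above background, with 15 (25.0%) lower and 6 (10.0%) higher by more than the gap. The Rac exchange factor gene Tiam1 was at 6.45 in control, then 5.83 under astragaloside IV and 5.48 under oxymatrine, with a difference of -0.80. Akt2, a kinase downstream of phosphoinositide 3-kinase, was at 8.82, 8.08 and 8.35 with a difference of -0.61, and Ptk2b, the focal adhesion-related kinase Pyk2, at 9.66, 9.12 and 9.15 with a difference of -0.53. Plcb3 was the highest member, at a difference of 0.24, followed by Rgs18 at 0.19 and Arrb1 at 0.18. Tiam1 and Akt2 were the members past 1.5-fold, both lower.

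Of 73 actin and actomyosin genes, 20 (27.4%) were lower and 6 (8.22%) higher by more than the gap, with a median of -0.00. Apart from Myo9a none was 1.5-fold apart. Was, the activator of branched actin in blood cells, was at 5.59, 5.28 and 5.15 with a difference of -0.38. Its treated values were at or below the background level, so the size of this difference is uncertain. The kinase gene Mylk differed by -0.36 with a gap of 0.52, while the cross-linker gene Flna was higher by 0.27 with a gap of 0.31. Among 31 integrin and adhesion genes, 10 (32.3%) were lower and 4 (12.9%) higher by more than the gap. Itgae, which pairs with Itgb7 to bind E-cadherin, was at 6.50, 5.77 and 6.01 with a difference of -0.61, and the membrane metalloproteinase gene Mmp14 at 12.40, 12.01 and 11.77 with a difference of -0.51.

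Microtubule and polarity genes had one of the larger shares, with 15 of 38 (39.5%) lower and 3 (7.89%) higher by more than the gap. Kif3a was followed by Numa1, a spindle pole protein, at 10.01, 9.63 and 9.43 with a difference of -0.48, and by Prkci, a kinase of the polarity complex, with -0.31. On the higher side Pard6a, a partner of Prkci, had a difference of 0.52, made by the oxymatrine array alone, at 7.21 against 6.28 with astragaloside IV and 6.22 in control. In the deposited values cell cycle genes had the largest share among lists of 10 or more, with 23 of 53 (43.4%) lower and 4 (7.55%) higher by more than the gap. The spindle genes Prc1 and Tpx2 had differences of -0.63 and -0.47 and the cyclin gene Ccnb2 one of -0.45, while Cdc6, which licenses replication origins, differed by 0.37 with a gap of 0.53. The median of the cell cycle list was -0.06.

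Secreted mediators lay on both sides of control. Among 22 chemokine ligand genes, 7 (31.8%) were lower and 4 (18.2%) higher by more than the gap. After Xcl1 came Cxcl2, a chemokine for neutrophils, at 10.89, 10.51 and 10.45 with a difference of -0.41, and Cxcl3 with -0.21. Ccl25, the ligand of Ccr9, was the highest, at 6.63, 7.01 and 7.09 with a difference of 0.42. Of 23 inflammatory cytokine genes 8 (34.8%) were lower and 4 (17.4%) higher by more than the gap, with Tnf at 13.63, 13.28 and 13.38 and a difference of -0.30, Lta at -0.33 and Vegfa at 0.25. Ifnb1 was at 5.74, 5.74 and 6.31, so its difference of 0.29 came from oxymatrine alone.

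No member of the lists of endosomal Toll-like receptor signalling and interferon-stimulated genes was 1.5-fold apart, beside 1.66% of all genes. Both lists are bright, with median log2 levels of 11.66 and 11.53, and of genes at 9 or more 0.213% were 1.5-fold apart. A count of 0 is near these shares and is not read as a trait of either list. Tlr9 differed by -0.04 and Irf7, the inducer of interferon alpha genes, by -0.16, at 15.05, 14.95 and 14.84. Of 29 endosomal Toll-like receptor signalling genes 8 (27.6%) were lower and 1 (3.45%) higher by more than the gap, and of 61 interferon-stimulated genes 17 (27.9%) were lower and 5 (8.20%) higher. Parp9 was lowest, at 11.33, 10.92 and 10.75 with a difference of -0.49, followed by Oas2 with -0.31 and the ubiquitin ligase gene Trim25 with -0.30. Oasl2 was highest, at 12.04, 12.47 and 12.53 with a difference of 0.46 and a gap of 0.06. Tlr3, a receptor of double-stranded RNA, was the highest of the Toll-like receptor list, at 9.19, 9.72 and 9.29, so that its difference of 0.32 came mostly from astragaloside IV and its gap was 0.43. Outside these lists, and named after their values were seen, the cytosolic DNA sensor gene Cgas was at 8.40, 7.80 and 7.73 with a difference of -0.64 and a gap of 0.08. The Toll-like receptor adaptor gene Ticam2 was at 8.44, 7.48 and 7.71 with a difference of -0.84 and a gap of 0.23. Both sensing genes were thus lower with each compound by more than 1.5-fold.

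Among 46 NF-kB and immediate early genes 15 (32.6%) were lower and 8 (17.4%) higher by more than the gap. The growth restraint gene Btg2 differed by -0.42 and Egr2 by -0.38, while Fosl1 was higher by 0.42 and Rela, a subunit of NF-kB, by 0.27, at 15.33, 15.51 and 15.69. Maturation and antigen presentation genes had the smallest lower share among the lists of 10 or more, with 6 of 39 (15.4%) lower and 3 (7.69%) higher by more than the gap. Marcksl1, an actin-binding protein, was at 9.01, 8.40 and 8.20 with a difference of -0.70, and Tap1, a peptide transporter, was higher by 0.11 with both compounds.

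Metabolic lists held single genes past 1.5-fold among many near control. In glycolysis 10 of 31 genes (32.3%) were lower and 5 (16.1%) higher by more than the gap. The glucose transporter gene Slc2a3 was at 8.34, 7.83 and 7.64 with a difference of -0.60, beside Pgam1, while Hk3, a hexokinase, was higher by 0.34, at 9.82 and 10.16 in both treated arrays. Of 22 cholesterol genes 8 (36.4%) were lower and 1 (4.55%) higher by more than the gap, with the mevalonate kinase gene Mvk at 6.54 and 6.07 in the treated arrays and a difference of -0.70, Dhcr7 at -0.49 and Hmgcs1 at -0.30. Of 25 liver X receptor and fatty acid synthesis genes 7 (28.0%) were lower and 0 higher by more than the gap, among them Scd3 and Scd1, the latter with -0.32. Acaca had a difference of 0.40 and a gap of 0.42.

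In the respiratory chain and ATP synthase 14 of 49 genes (28.6%) were lower and 3 (6.12%) higher by more than the gap. Atp5pb, a subunit of the ATP synthase stalk, was at 13.44 in control and 12.97 in both treated arrays, and Uqcrc2 of complex III at 10.09 and 9.63, differences of -0.47 and -0.46. Sdha of complex II differed by -0.56 with a gap of 0.67, so that its mean rests on oxymatrine. Among 54 cytosolic ribosomal protein genes 9 (16.7%) were lower and 11 (20.4%) higher by more than the gap, the only list of 10 or more with more members higher than lower by this measure. Rps19 was at 14.05, 13.73 and 13.59 with a difference of -0.39, and Rplp0 differed by -0.54 with a gap of 0.76. Of 34 proteasome genes 12 (35.3%) were lower and 2 (5.88%) higher by more than the gap, with Psma3 at -0.39 and Psmd1 at -0.25, and of 36 lysosome and proton pump genes 13 (36.1%) were lower and 3 (8.33%) higher, with Atp6ap1 at -0.24 and Neu1 at 0.30.

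Among the stress response lists, only that of oxidative stress held a member past 1.5-fold, and 1 gene does not set it apart from the others. Osgin1, a target of NRF2, was at 7.89 in control and 7.19 in both treated arrays, a difference of -0.70, and Nfe2l2, which encodes NRF2 itself, was at 8.19 and 7.83, a difference of -0.37. In this oxidative stress list 10 of 29 genes (34.5%) were lower and 5 (17.2%) higher by more than the gap. Among 43 unfolded protein or integrated stress response genes 13 (30.2%) were lower and 3 (6.98%) higher, with Xbp1 at 14.47, 14.19 and 14.20 and a difference of -0.28, and the amino acid transporter gene Slc7a5 at -0.36. Of 14 heat shock genes 4 (28.6%) were lower and 1 (7.14%) higher, the latter Bag3 with 0.31. Of 21 glucocorticoid response genes 6 (28.6%) were lower and 4 (19.0%) higher, with Errfi1, an inhibitor of EGF receptors, at -0.56 and the metallothionein gene Mt2 at 0.36, and of 33 p53 target and apoptosis genes 9 (27.3%) were lower and 5 (15.2%) higher, with Casp6 at -0.39 and Birc2 at 0.26.

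**Figure D5:**
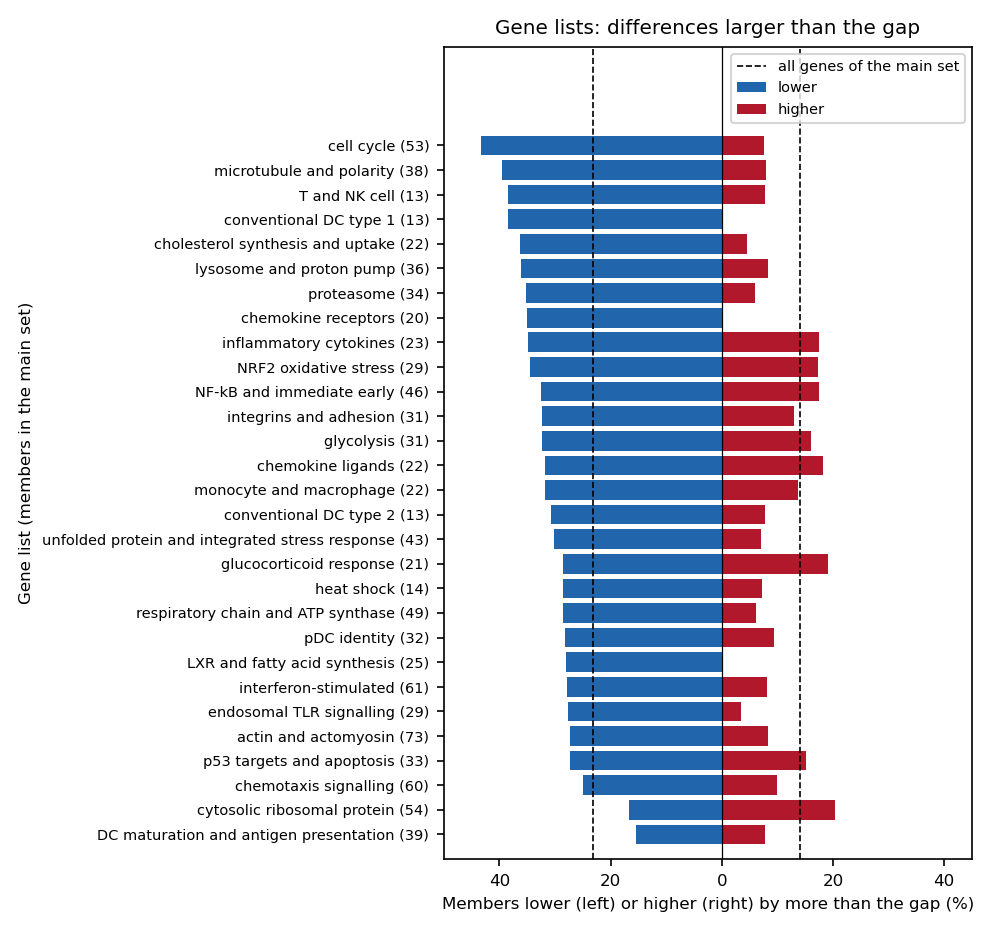
Share of each gene list's members above background that were lower (blue, left) or higher (red, right) in the treated mean by more than the gap, for the lists of 10 or more members, whose number stands in brackets. Dashed lines give the same shares over all 10671 genes, 23.1% lower and 14.1% higher; the cell cycle list reaches 43.4% lower and the ribosomal protein list 16.7%.

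Levels of genes that mark the labelled cell type are given here, and they do not settle the purity of the sort. Tcf4, the factor that maintains the lineage, was at 14.37 in all 3 arrays, Siglech at 8.99, 8.99 and 9.02 and Bst2 at 12.09, 12.09 and 12.08. Of 40 measured plasmacytoid dendritic cell genes 32 were above background, 9 (28.1%) lower and 3 (9.38%) higher by more than the gap. The median log2 level of these 32 was 9.20, beside 9.26 for all genes above background. It was 9.40 and 10.08 for the type 1 and type 2 dendritic cell lists and 11.35 for monocyte and macrophage genes. For the B cell list it was 6.95 and for the T and NK cell list 7.88. Flt3, the receptor of the culture's growth factor, was at 9.83, 9.29 and 9.46 with a difference of -0.46, and Cd8a differed by -0.32. Ets1 and Smim5 were the members past 1.5-fold, in opposite directions. The log2 of the summed level of the list was 18.41 in control, then 18.33 under astragaloside IV and 18.27 under oxymatrine.

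Markers of other cells were present as well. For comparison, 10671 of 19505 named genes were above background. Of 16 conventional type 1 dendritic cell genes 13 were above background, and 5 (38.5%) were lower and 0 higher by more than the gap, with Plpp1 at -0.67, Itgae at -0.61 and Gcsam at -0.53. The highest members of this list were Tlr3, at 0.32, and Wdfy4, at 0.04. The log2 of their summed level was 17.73 in control, then 17.65 under astragaloside IV and 17.61 under oxymatrine. For 17 type 2 dendritic cell genes, 13 of them above background, the shares were 30.8% lower and 7.69% higher, with summed levels of 18.31, 18.27 and 18.35, and for 22 of 24 monocyte and macrophage genes they were 31.8% and 13.6%, with summed levels of 17.94, 17.87 and 17.88. Timd4, a phosphatidylserine receptor, was the highest of the latter, at 6.16, 6.78 and 6.71 with a difference of 0.58.

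Smaller parts of the lymphoid and granulocyte lists were above background, though some members were bright. Their levels stand here beside Xcl1, Ets1 and Il2rb. Of 28 measured T and NK cell genes 13 were above background, with 5 lower and 1 higher by more than the gap, and summed levels of 14.47, 14.44 and 14.44. Besides Il2rb, Cd5 was at 8.17 in control and 7.73 in both treated arrays, a difference of -0.45, while Cd4 was higher by 0.23. Of 17 B cell genes 7 were above background, with 0 lower and 2 higher by more than the gap, Ebf1 with a difference of 0.31, and summed levels of 12.22, 12.19 and 12.25. Of 19 neutrophil genes 4 were above background, with Lcn2 at 13.21, 12.71 and 12.94, Csf3r at 10.59, 10.11 and 10.49 and summed levels of 13.71, 13.30 and 13.51. Erythroid genes (3 of 11 above background, with Car2 at -0.27) had summed levels of 14.11, 13.71 and 14.01, and mast cell genes (3 of 12, with Kit at -0.07) of 14.46, 14.45 and 14.40. The part of these cells in the differences was not tested.

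Control features of the arrays were not all level either. The array's 1324 probe sets named as positive controls had a mean difference of -0.09, and the 5222 named as negative controls one of 0.16. Of the 1324 positive ones 172 and of the 5222 negative ones 2061 were 1.5-fold apart, with mean gaps of 0.33 and 0.68. Both shares were larger than those of genes, 177 (1.66%) of 10671 above background and 523 of 19505 with no level filter. The control probe sets were not filtered by level, and the negative ones had a median level of 5.45, above the limit of 5.28 used for genes. Gapdh was at 17.02 in each array and Actb differed by 0.01. Of the 1412 olfactory and vomeronasal receptor genes, 94 (6.66%) were 1.5-fold apart, 47 lower and 47 higher, and of the 71 above background 1 was. The part of these shifts in the differences of the genes was not tested.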

How the data were processed

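The values are log2 expression levels per probe set, deposited by the authors and made with RMA, a method that normalises arrays and summarises probes, as the submitters' processing notes name it. Its software, version and annotation build are not given in the sources used. Biotin-labelled cRNA was made with a whole-transcript kit, per the labels' protocols. That the base is 2 was taken from the values, which span 1.78 to 19.7. The deposited arrays were not fully level, with medians over the genes above background of 9.28 in control, 9.25 and 9.23, and why many values tie exactly was not tested.

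Of 28846 probe sets, 19572 had 1 gene symbol, 0 several and 9274 none in the platform annotation. Where a symbol had several probe sets (55 symbols), the brightest by mean was kept. With 1 array a group no test, p-value or replicate error exists, and no paired analysis was made; the number of arrays limits the precision. Genes were counted at 2-fold and 1.5-fold. Named genes were the 15 lowest and 15 highest by mean difference among those past 1.5-fold and the gap, up to 8 bright genes each way, the 3 lowest and 3 highest members of the lists, from which a selection is printed, and a fixed set. The rule's further part, up to 5 genes past 2-fold with a gap as large, held 0 genes. Predicted genes, clones and receptor genes were counted and not named. Members, lists and thresholds were chosen with earlier results of these data known. The promoter motifs were chosen after the values were seen. A listed symbol was matched through a synonym only where it names no current gene. Alternatives were other level filters, thresholds, centring, quantile normalisation, lowess, averaging of probe sets and leaving out a treated array. The calculation was tested on simulated data. Scripts ran under Python 3.11.15, with matplotlib 3.10.9, numpy 2.4.6, statsmodels 0.14.6 and pandas 2.3.3.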

Additional observations from a re-analysis of the deposited data

Results flagged for a closer look

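Zfp976, a zinc finger gene, lay on opposite sides of control in the treated arrays, at 6.63 in control, then 7.32 under astragaloside IV and 5.98 under oxymatrine. The difference from control was 0.70 with astragaloside IV and -0.64 with oxymatrine, so the mean of both, at 0.03, hides it. It was the only gene of the 10671 that was 1.5-fold apart in opposite directions, and the difference between the compounds was not tested, as each is 1 array.

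Among 1278 transcript probe sets above background with no gene name here, which the comparison of genes does not use, 6 were 2-fold higher in the treated mean than in control with a difference larger than the gap, and 3 were 2-fold lower.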

How the results depend on the processing

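Of 11 genes 2-fold apart, 5 were left with the 99th percentile of receptor genes as background, 6 with every array above background and 0 at 3-fold, and with no level filter there were 36. The 177 genes at 1.5-fold became 523 with no level filter, and the 164 with a difference larger than the gap became 473. These counts follow from how many dim genes enter. Leaving out a treated array, which leaves 1 comparison with no gap, gave 21 to 30 genes at 2-fold and 227 to 353 at 1.5-fold, and for the latter without the gap condition likewise 227 to 353. Of the 177 genes, 148 were also past 1.5-fold without the astragaloside IV array and 128 without the oxymatrine array. The counts stayed within 1.5 times under centring, quantile normalisation, lowess centring and averaging of probe sets, with 151, 154, 165 and 177 of the 177 genes shared. The split did not: 3 of the 11 genes 2-fold apart were higher, against 6 of 12 after centring and 3 of 5 with the 99th percentile filter, and 42.4% of those 1.5-fold apart, against 53.7% after centring. Among the named genes past 1.5-fold 0 values changed sign. Where the difference was larger than the gap, leaving out a treated array could not change the sign, as both arrays lay on the same side of control. Of the gene values, 22 moved by more than the SD at their level, all from leaving out a treated array, against 429 that did not. Of the list medians 3 values moved and 294 did not: that of the neutrophil list, -0.21, was 0 with no level filter and -0.37 to -0.05 with a treated array left out. No paired analysis was possible because each group has 1 array and no test was made.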

Other observations

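Among genes and transcript probe sets above background, the largest differences lay in probe sets that carry no gene name here. Control probe sets and those below background were not ranked. TC1700001227.mm.2 was at a log2 level of 8.83 in control, then 5.37 under astragaloside IV and 5.84 under oxymatrine, a mean difference of -3.22 with a gap of 0.46, beyond that of any named gene above background. TC1000000077.mm.2 was at 3.97 in control, below background, and at 5.99 and 6.76 in the treated arrays, a mean difference of 2.40 with a gap of 0.77. TC0200003747.mm.2 was the brightest of the higher ones, at 9.11 in control, then 10.61 under astragaloside IV and 10.23 under oxymatrine, a difference of 1.31. TC0600001278.mm.2 differed by -1.72 with a gap of 3.16, its low value coming from the oxymatrine array alone. These probe sets were chosen after their values were seen.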
